A study of Mus musculus with 12 samples.

Results

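The 5 neuronal genes described here are Dcx, Mtap2, Nefl, Slc17a7 and Dlx1, the rows of those names among the 14899 genes of the deposited allelic expression table. RNA had been sequenced from hybrid mouse cells that carry 1 genome of 129Sv and 1 of Cast/EiJ, so that reads over strain variants reveal their allele. The groups were 4 clonal neural progenitor (NPC) lines of the XX embryonic stem (ES) line F1-21.6 (clones 129, C2, G4 and E1.2), 4 clonal NPC lines of the XY ES line F1-23 (clones mC3, mE6, mB4 and mG3), and the ES lines F1-21.6 and F1-23 themselves, with 1 library each. The labels name no drug, transgene or knockout. Each NPC line is a single clone in neural progenitor culture, and the ES cells were kept with LIF on inactivated mouse embryonic fibroblasts (MEFs), which can themselves give RNA. The 8 clones come from 2 ES lines, so p-values measure the spread among clones and not among animals. XX and XY clones also differ in the prefix of their library names, so line, sex chromosomes and library set cannot be told apart among NPC clones.

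Neural progenitors divide and can give rise to neurons and glia, and the 5 genes mark different steps of the neuronal branch. Dcx encodes doublecortin, a microtubule-binding protein of migrating young neurons, and Mtap2 (Map2) a microtubule-associated protein of dendrites. Nefl encodes the light neurofilament subunit of axons, Slc17a7 the vesicular transporter VGLUT1 that loads glutamate into synaptic vesicles, and Dlx1 a homeobox transcription factor of ventral forebrain and its inhibitory interneurons. Many neuronal genes are repressed outside neurons by REST (NRSF), which binds the RE1 element.

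Promoter sequences of the RefSeq mouse assembly GRCm38.p6, from 250 bases before to 50 bases after the start, were at hand for 4 of the 5 genes (not Nefl), and are shown for the 3 of them whose expression passed the test below, on the gene's own strand. Capitals mark the only matches to the motifs searched on both strands. These were an E-box of proneural factors, CAGCTG, a further E-box that proneural factors can bind, CAGATG, the left part of RE1, TTCAGCACC, its right part, GGACAG, and a homeodomain core, TAATTA, which reads the same on both strands.
Dcx, chrX:143933170-143933469, minus strand: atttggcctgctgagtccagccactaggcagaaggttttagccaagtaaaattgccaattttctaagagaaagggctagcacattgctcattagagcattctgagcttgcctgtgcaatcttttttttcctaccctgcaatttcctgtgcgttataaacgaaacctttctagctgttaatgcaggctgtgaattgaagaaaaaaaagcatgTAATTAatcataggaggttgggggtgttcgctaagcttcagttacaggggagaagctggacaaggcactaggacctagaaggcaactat
Mtap2, chr1:66175079-66175378, plus strand: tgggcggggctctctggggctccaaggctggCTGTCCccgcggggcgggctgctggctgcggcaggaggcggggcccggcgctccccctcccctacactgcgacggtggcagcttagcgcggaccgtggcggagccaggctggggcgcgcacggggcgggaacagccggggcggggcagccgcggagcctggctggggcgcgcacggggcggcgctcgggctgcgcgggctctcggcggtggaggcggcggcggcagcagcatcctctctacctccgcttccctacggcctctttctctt
Slc17a7, chr7:45163671-45163970, plus strand: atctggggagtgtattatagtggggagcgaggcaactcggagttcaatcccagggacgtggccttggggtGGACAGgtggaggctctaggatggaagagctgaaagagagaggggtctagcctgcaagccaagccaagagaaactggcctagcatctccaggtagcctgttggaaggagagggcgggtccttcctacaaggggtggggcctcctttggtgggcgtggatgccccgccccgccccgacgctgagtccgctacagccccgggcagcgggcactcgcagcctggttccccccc
The Dcx promoter had 43% G and C, below most of the 32817 promoters of that table (16.5% of them lower, median 52.7%), and the Mtap2 promoter had 77.7% (97.9% of them lower). Slc17a7 and Dlx1 lay between these, at 63.7% and 69.3%. The Dcx stretch held TAATTA at position -39 from the start, a sequence present in 5.3% of promoters, and the window of a second Dcx start held the same match. GGACAG stood on the minus strand of Mtap2 (position -219) and on the plus strand of Slc17a7 (-180) and Dlx1 (28), and in 22.2% of all promoters. The E-boxes, in 16.3% (first) and 17.2% (second) of promoters, and the left part of RE1, in 0.372%, were not among these letters.

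The libraries held 61375911 to 119266777 allele-informative counts. Of 12 progenitor and radial glia markers, 10 were higher and 1, Sox2, was lower in NPC clones than in ES lines, with Fabp7, a lipid carrier of radial glia, at 1533 to 3426 FPKM (sequenced fragments per transcript length and library depth) in NPC clones, against 0 FPKM in ES line F1-21.6 (XX) and 0.0295 FPKM in F1-23 (XY). Olig2 and Bcan were higher too, and all 5 pluripotency markers in the table were lower, most of all Nr0b1, Tcfcp2l1 and Klf5. By the edgeR test below, 33.3% of all 14561 genes tested were higher and 29.7% lower. Clone E1.2 stood apart from the other clones in the sum of fibroblast markers. The summed FPKM of the 7 fibroblast markers in the table was 45.9 in E1.2 and 1.33 to 6.76 in the other clones, against 30.6 in ES line F1-21.6 (XX) and 49.7 in F1-23 (XY), and no clone had all of them at 0. Among the clones, all of these markers but Col1a1 were highest in E1.2. Col1a1 was at 0.161 FPKM in E1.2 and 0.422 in G4, against 10.2 in ES line F1-21.6 (XX) and 24.9 in F1-23 (XY). The make-up of the sum thus differed between E1.2 and the ES lines. The summed FPKM of 7 astrocyte markers was 303 in E1.2 and 91.3 to 274 in the other clones, with mB4 at 274. It was 103 in ES line F1-21.6 (XX) and 117 in F1-23 (XY). Gfap was at 5.32 FPKM in E1.2 and 0.0693 to 0.436 FPKM in the other clones, and Aqp4, S100b, Slc1a2 and Clu were highest in E1.2 too. Aldoc was not (60.2 FPKM in E1.2, 153 in mB4), nor was Gja1 (69.8 FPKM in E1.2, 76.4 in mG3).

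Between NPC clones and ES lines, Dcx and Mtap2 were higher and Nefl and Slc17a7 lower in the NPC clones, while Dlx1 did not pass. All 5 genes passed the filter on low counts, and 4 of 5 passed edgeR's quasi-likelihood test at a Benjamini-Hochberg adjusted p of 0.05. That share has to be read against 63% of all 14561 genes tested, 33.3% higher and 29.7% lower. The direction divided the 5 genes, and no count over them sets them apart from other genes. Nefl, Slc17a7 and Dlx1 had means of 0.223, 0.154 and 0.255 FPKM in NPC clones.

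**Figure D1:**
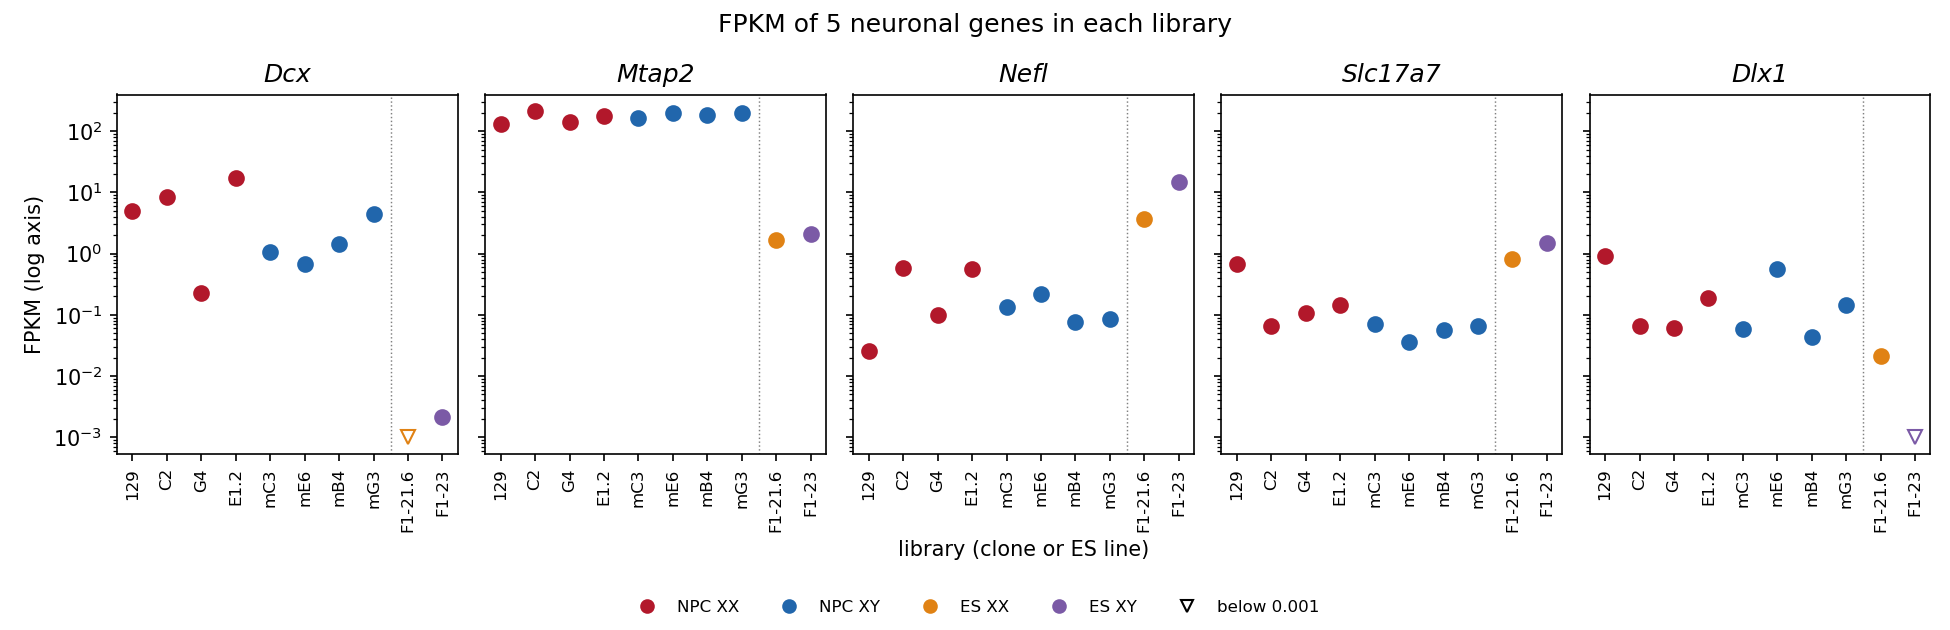
FPKM of the 5 genes in each library on a log axis, with 4 XX and 4 XY NPC clones left of the dotted line and the XX and XY ES lines right of it. Each point is 1 library, and an open triangle marks a value below 0.001. Mtap2 is at 134 to 216 FPKM in NPC clones and 1.70 and 2.08 in the ES lines, Dcx spreads from 0.228 to 17.3 among clones, and Nefl and Slc17a7 are highest in the ES lines.

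Dcx (ENSMUSG00000031285.7, minus strand of chromosome X, 140290385 to 140367762 in mm9) had 4.89 FPKM in XX clone 129, 8.39 in clone C2, 0.228 in clone G4 and 17.3 in clone E1.2, and 1.06 FPKM in XY clone mC3, 0.671 in clone mE6, 1.44 in clone mB4 and 4.42 in clone mG3, against 0 FPKM in ES line F1-21.6 (XX) and 0.00211 FPKM in F1-23 (XY). In such bulk RNA, fewer cells of a type and less RNA per cell cannot be told apart. Every clone lay above both ES lines, with E1.2 highest and G4 lowest, and such a gap in CPM was found for 62% of all genes tested. The counts behind these were 408 to 31122 in NPC clones, against 0 in both ES lines. With 74.6 ± 90.9 CPM (counts scaled to the library total; SD, n = 8) in NPC clones, Dcx was at least 3448-fold higher than the floor that 3 counts over both ES libraries set, 0.0216 CPM (adjusted p = 0.00293, edgeR; higher in 8 of 8 clones). Without clone E1.2 this bound was 2123-fold. Within each line a single ES library stood against 4 clones. Tests within lines thus take their spread from the clones alone and assume that an ES library varies like them. Within the XX line the library set differs as well. The edgeR adjusted p so obtained for Dcx was 0.0164 for XX (51.2% of 14848 genes passed) and 0.0288 for XY (47.3%). On the scale of log2(FPKM + 1), limma gave a difference of 1.97 that did not pass (adjusted p = 0.0703).

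Mtap2 (ENSMUSG00000015222.10, plus strand of chromosome 1, 66221859 to 66489157 in mm9) had the highest FPKM of the 5 in every NPC clone, while Nefl was above it in both ES lines. It had 134 FPKM in XX clone 129, 216 in clone C2, 141 in clone G4 and 180 in clone E1.2, and 168 FPKM in XY clone mC3, 196 in clone mE6, 181 in clone mB4 and 200 in clone mG3, against 1.70 FPKM in ES line F1-21.6 (XX) and 2.08 FPKM in F1-23 (XY). The clones were close to each other, and no value came near those of the ES lines. Its mean of 177 FPKM lay above 98.7% of the genes of the table in NPC clones, and its mean of 1.89 FPKM above 36.0% in ES lines. In counts it had 1334 ± 224 CPM (SD, n = 8) in NPC clones and 14.4 ± 4.87 CPM (SD, n = 2) in ES lines, a log2 fold change of 6.55 ± 0.34 (SE; edgeR adjusted p = 1.345e-06). The fold change was 6.91 within the XX line and 6.24 within the XY line on the log2 scale, each against 1 ES library, a difference of 0.67 ± 0.41 (SE) that did not pass (edgeR adjusted p = 0.639; 0.101% of 14848 genes passed this interaction).

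Of 17 other microtubule-associated and migration genes, 4 were higher, 4 lower and 9 did not pass. Over all genes tested, 33.3% were higher and 29.7% lower. The median log2 fold change was -0.16, against 0.11 over all genes. Dclk1, a doublecortin-like kinase, had a mean of 19.8 FPKM in NPC clones and 0.434 FPKM in ES lines (log2 fold change 4.63 ± 0.61 SE, edgeR adjusted p = 0.000187), and Dclk2 was higher by 1.35. Mapt, the axonal protein tau, was lower, with a mean of 1.3 FPKM in NPC clones and 13.5 FPKM in ES lines (log2 fold change -3.69). Tubb3, the neuronal beta-tubulin, was lower as well (-2.84), with 1.10 to 8.09 FPKM in NPC clones, against 18.0 FPKM in ES line F1-21.6 (XX) and 50.1 FPKM in F1-23 (XY). Among the relatives of Mtap2, Mtap1a was higher by 1.05 and Mtap4 lower by 0.57 (edgeR adjusted p = 0.0497), while Mtap1b was at 20.02 ± 11.4 FPKM (SD, n = 8) in NPC clones, against 14.3 FPKM in ES line F1-21.6 (XX) and 27.3 FPKM in F1-23 (XY), and did not pass. Without the XY ES line the counts were 3 higher and 2 lower.

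**Figure D2:**
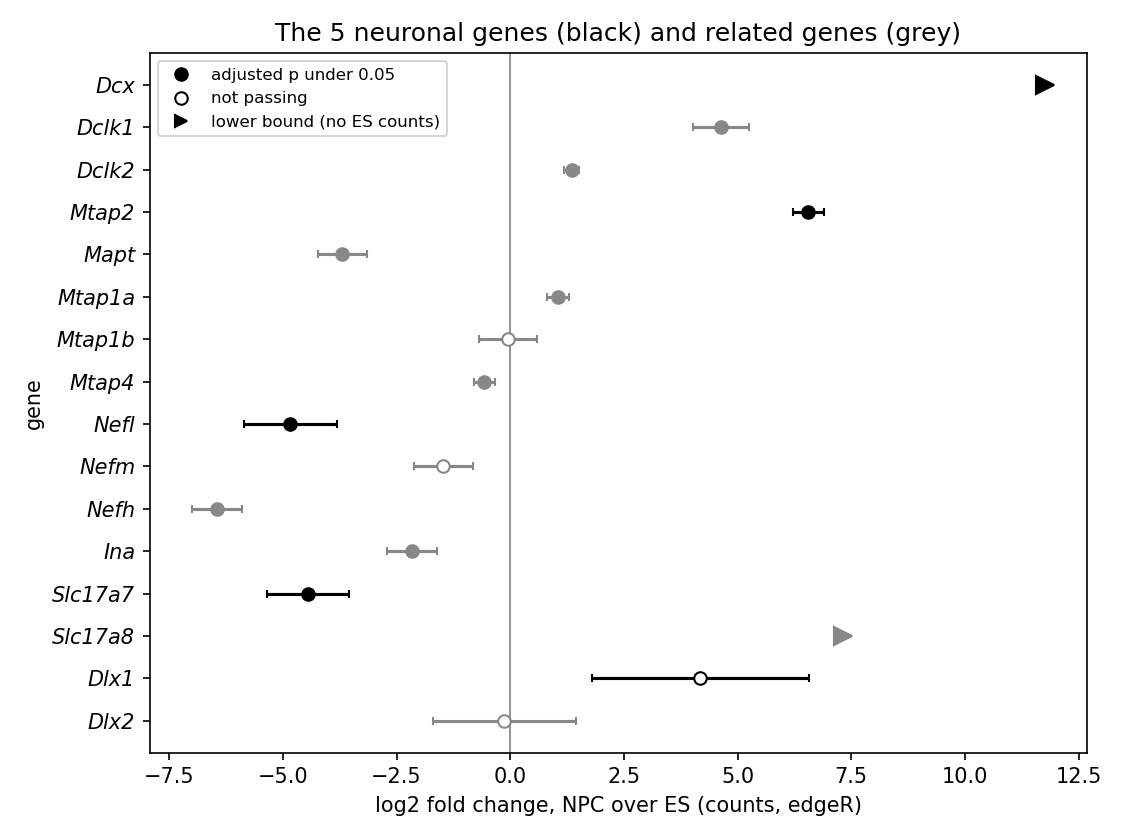
Log2 fold change of NPC clones over ES lines in counts, with the standard error, for the 5 genes in black and for related genes in grey. Filled points passed an adjusted p of 0.05, and triangles are lower bounds for genes without ES counts. That of Dcx may be too high, since its counts may not be independent observations. Mtap2 and Mapt lie on opposite sides of 0, as do Slc17a7 and Slc17a8.

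Nefl (ENSMUSG00000022055.7, plus strand of chromosome 14, 68701941 to 68707120 in mm9) ran the other way. It had 0.0254 FPKM in XX clone 129, 0.591 in clone C2, 0.101 in clone G4 and 0.552 in clone E1.2, and 0.136 FPKM in XY clone mC3, 0.216 in clone mE6, 0.0758 in clone mB4 and 0.0844 in clone mG3, against 3.66 FPKM in ES line F1-21.6 (XX) and 14.9 FPKM in F1-23 (XY). The groups did not overlap, and in CPM the same held for 62% of all genes tested. With 0 to 47 counts in NPC clones, against 197 in ES line F1-21.6 (XX) and 938 in F1-23 (XY), the log2 fold change was -4.83 ± 1.03 (SE; edgeR adjusted p = 0.00282; lower in 8 of 8 clones). Without the XY ES line it was -3.49 and did not pass (edgeR adjusted p = 0.0788). Within lines, with 1 ES library each and the spread taken from the clones, it was -5.68 for XY (edgeR adjusted p = 0.0116) and -3.51 for XX (edgeR adjusted p = 0.0648), and the difference between these of 2.17 ± 2.32 (SE) did not pass (edgeR adjusted p = 0.838). Nefm, the medium neurofilament subunit, is annotated by GENCODE on the opposite strand across Nefl, and the counting is not stated to use strand.

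Of 7 other intermediate filament genes, 2 were higher, 3 lower and 2 did not pass, beside 33.3% higher and 29.7% lower of all genes. The median log2 fold change was -1.47. Without the XY ES line 2 were lower. The lower ones were Prph, peripherin of peripheral neurons (log2 fold change -6.53), Nefh, the heavy neurofilament subunit (-6.45 ± 0.54 SE, edgeR adjusted p = 1.445e-05), and Ina, alpha-internexin (-2.16). Nefh had 0.0106 to 0.0775 FPKM in NPC clones, against 2.64 FPKM in ES line F1-21.6 (XX) and 2.88 FPKM in F1-23 (XY). Nefm was at 0.041 to 1.28 FPKM in NPC clones, against 0.505 FPKM in ES line F1-21.6 (XX) and 3.21 FPKM in F1-23 (XY), and did not pass (edgeR adjusted p = 0.076). The higher ones were nestin, Nes (5.20), and vimentin, Vim (2.50), the filament proteins of dividing progenitors. Of the neural crest and peripheral nervous system list, 3 of 8 genes were in the table (Ngfr, Prph and Isl1), 2 of them lower, with a summed FPKM of 0.0678 to 0.914 in NPC clones, against 16.8 in ES line F1-21.6 (XX) and 10.9 in F1-23 (XY). The fibroblast marker sums given above were also higher in the ES lines than in 7 of the 8 clones, and their part in the differences of Nefl and Slc17a7 was not tested.

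Slc17a7 (ENSMUSG00000070570.4, plus strand of chromosome 7, 52419291 to 52431509 in mm9) was low in all libraries. It had 0.685 FPKM in XX clone 129, 0.0661 in clone C2, 0.107 in clone G4 and 0.146 in clone E1.2, and 0.0706 FPKM in XY clone mC3, 0.0361 in clone mE6, 0.0559 in clone mB4 and 0.0666 in clone mG3, against 0.819 FPKM in ES line F1-21.6 (XX) and 1.47 FPKM in F1-23 (XY). In FPKM, clone 129 was far above the other clones and just below the XX ES line. In CPM clone 129 was at 0.666, against 1.58 in the XX ES line. Counts were 1 to 45 in NPC clones, against 107 in ES line F1-21.6 (XX) and 174 in F1-23 (XY), with a log2 fold change of -4.45 ± 0.91 (SE; edgeR adjusted p = 0.0023; lower in 8 of 8 clones). Without the XY ES line it was -2.48 and did not pass (edgeR adjusted p = 0.091). Within lines, again with 1 ES library each, it was -5.57 for XY (edgeR adjusted p = 0.00393) and -2.50 for XX (edgeR adjusted p = 0.0813), a difference of 3.07 ± 1.78 (SE) that did not pass (edgeR adjusted p = 0.613).

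All 4 genes of vesicular transport and transmitter synthesis in the table (of 11) were higher, beside 33.3% of all genes. Among them were Slc17a8 (VGLUT3), Gad1, which makes GABA, and Slc17a5, a lysosomal and vesicular transporter. Every gene of the table reached at least 11 counts in some NPC clone, while genes without ES counts were kept. Genes below that in all NPC clones are thus missing, which bears on this and all other list counts. Slc17a8 was at 0.0736 to 2.25 FPKM in NPC clones, against 0 FPKM in ES line F1-21.6 (XX) and 0.0264 FPKM in F1-23 (XY), and at least 160-fold higher in counts than the floor of the ES lines, which had 0 counts. Gad1 was at 0.631 to 3.65 FPKM in NPC clones, against 0.325 FPKM in ES line F1-21.6 (XX) and 0.327 FPKM in F1-23 (XY) (log2 fold change 3.14 ± 0.82 SE, edgeR adjusted p = 0.00843). Of 22 synapse genes, 11 were higher, 1 lower and 10 did not pass, beside 33.3% higher and 29.7% lower of all genes, with a median log2 fold change of 1.89, against 0.11 over all genes. Without clone E1.2 2 were lower. The AMPA receptor subunit Gria2 (1.94 to 26.7 FPKM in NPC clones) had no ES counts and was at least 2315-fold higher. Nlgn1, a postsynaptic adhesion protein, had no ES counts either and was at least 111-fold higher. The lower one was Grin1, the obligate NMDA receptor subunit (-4.66). Snap25 and Syt1, of the vesicle fusion machinery, were at 0.438 ± 0.227 and 0.454 ± 0.338 FPKM (SD, n = 8) in NPC clones and did not pass.

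Dlx1 (ENSMUSG00000041911.3, plus strand of chromosome 2, 71367502 to 71372037 in mm9) had 0.901 FPKM in XX clone 129, 0.0663 in clone C2, 0.0617 in clone G4 and 0.188 in clone E1.2, and 0.0579 FPKM in XY clone mC3, 0.572 in clone mE6, 0.043 in clone mB4 and 0.147 in clone mG3, against 0.0215 FPKM in ES line F1-21.6 (XX) and 1.17e-09 FPKM in F1-23 (XY). Clones 129 and mE6 stood above the other clones. Counts were 117, 22, 15 and 34 in these XX clones and 0, 81, 1 and 25 in these XY clones, against 0 in ES line F1-21.6 (XX) and 3 in F1-23 (XY), so that in counts the groups overlapped, while in FPKM every clone lay above both ES lines. The ratio of the NPC mean to the pooled ES level was 21.4, with a 95% counting interval of 7.33 to 104 from the 3 ES counts, and edgeR's adjusted p was 0.152 (DESeq2 gave 0.0465). The fitted log2 fold change of 4.18 was 2.90 without the XX ES line and 8.69 without the XY ES line, which holds all 3 ES counts, and neither passed. The antisense transcript Dlx1as, which spans Dlx1 on the other strand, is listed with the counts and allele shares of Dlx1 in 10 of 10 libraries, so the counts do not tell these apart. Its FPKM differed and reached 0.0792 in clone 129.

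Of 11 Dlx family and interneuron genes in the table (of 19), 4 were higher, 1 lower and 6 did not pass, beside 33.3% higher and 29.7% lower of all genes. The 6 include Dlx2 and Dlx1as, which has the counts of Dlx1. The median log2 fold change was 3.12 without Dlx1as, or 2.01 with genes without ES counts at their lower bounds. Sox6 was higher by 7.79. Lhx6, a factor of migrating interneurons, was lower by 4.61, at 0.00494 to 0.114 FPKM in NPC clones. Dlx2 was at 0.0119 to 0.367 FPKM in NPC clones, against 0.0405 FPKM in ES line F1-21.6 (XX) and 0.117 FPKM in F1-23 (XY). Without clone E1.2 the counts were 2 higher and 1 lower of 10 genes, and without the XY ES line 4 higher and 0 lower.

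Among 21 proneural and neuronal regulators tested, 10 were higher, 6 lower and 5 did not pass, with a median log2 fold change of 1.68. Over all genes tested, 33.3% were higher and 29.7% lower, which also stands beside the other lists below. Rest, the gene of the repressor REST, was lower, with 7.46 to 11.5 FPKM in NPC clones, against 60.0 FPKM in ES line F1-21.6 (XX) and 67.1 FPKM in F1-23 (XY) (log2 fold change -2.69 ± 0.14 SE). Ebf3 and St18, transcription factors of young neurons, were without ES counts and at least 1691-fold and 24.2-fold higher, St18 at no more than 0.0845 FPKM. Myt1 was higher by 6.88, and Eomes, a factor of cortical intermediate progenitors, was lower by 5.86. Of the RNA-binding Elavl proteins, Elavl3 was lower (-4.01) and Elavl4, at 1.49 ± 0.466 FPKM (SD, n = 8) in NPC clones, did not pass. Of other lists of cell types, 3 of 7 astrocyte genes (Aqp4, S100b and Slc1a2) were higher and 1 (Clu) lower. Of 5 oligodendrocyte genes, Cnp was higher and Mbp lower, and of 7 fibroblast genes 4 were lower (Col1a1, Postn, Thy1 and Col6a1) and 0 higher.

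Among the 8 NPC clones, Dcx varied more than nearly all genes of its CPM level, and Mtap2 did not stand apart from genes of its CPM level. The SD of log2 CPM was 0.245 for Mtap2, with 33.5% of genes lower, and 1.98 for Dcx, 1.62 for Nefl and 2.14 for Dlx1, against a median of 0.342 over 13591 genes. Since spread depends on the level, each gene was set beside those within 1 log2 unit of its own mean CPM. This match is rough, since counts also depend on the variants in a gene. For Dcx they may not be independent observations. For Dcx the SD exceeded that of 99.2% of 3931 such genes (median 0.249), for Mtap2 35.6% of 180 (median 0.309), for Nefl 73.8% of 1143 (median 1.17) and for Dlx1 89.0% of 1249 (median 1.13). Dcx in FPKM was 75.9-fold higher in E1.2 than in G4, and both are XX clones. Its SD was 2.64 among XX clones and 1.06 among XY clones. Slc17a7 did not pass the filter of this comparison. Clone E1.2, highest in Dcx, also had the highest sums of astrocyte and fibroblast markers, and their part in its Dcx level was not tested.

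**Figure D3:**
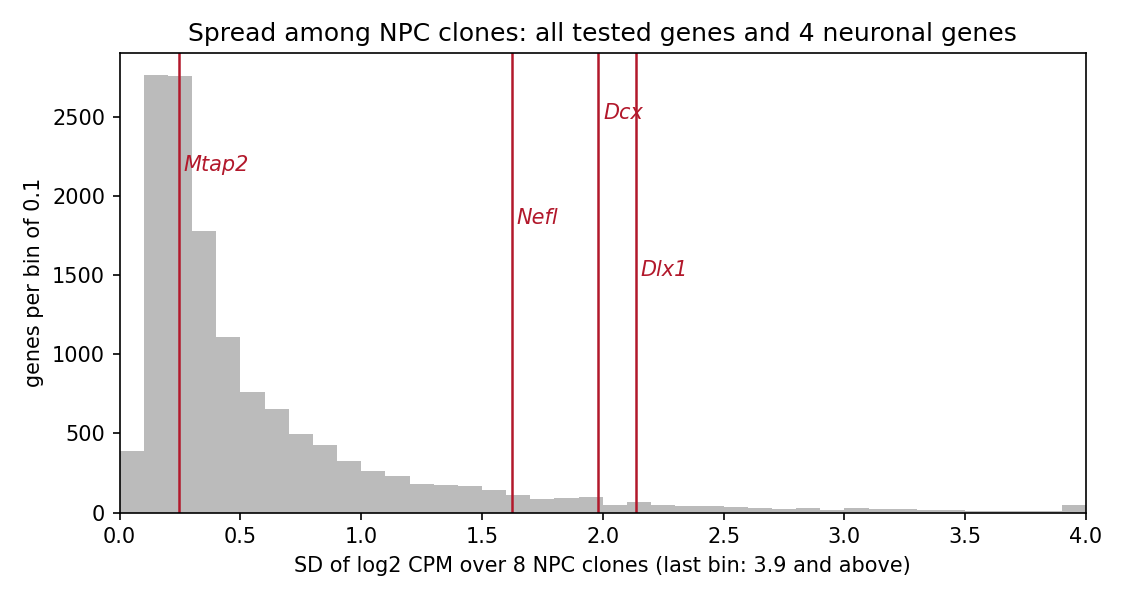
Standard deviation of log2 CPM over the 8 NPC clones for all 13591 tested genes (grey bars, genes per bin) and for 4 of the neuronal genes (red lines). Mtap2 lies in the bulk of the genes at 0.245, and Nefl, Dcx and Dlx1 lie in the tail at 1.62, 1.98 and 2.14.

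Between XX and XY clones none of the 4 genes tested passed, in a comparison that 1.29% of 13591 genes passed and in which 17.4% had groups that did not overlap in CPM. With 1 clone left out 7 to 496 genes passed, against 175 with all clones. All 5 genes overlapped. Dcx was at 7.70 ± 7.21 FPKM in XX clones and 1.90 ± 1.71 FPKM in XY clones (SD, n = 4 each; exact permutation p = 0.257, two-sided), with a log2 fold change in counts of 2.02 ± 1.03 (SE; edgeR adjusted p = 0.273). Mtap2 was at 168 ± 38.0 FPKM in XX clones and 186 ± 14.7 FPKM in XY clones (SD, n = 4 each; exact permutation p = 0.343), with a log2 fold change of -0.05 ± 0.18 (SE; edgeR adjusted p = 0.896). The log2 fold change was -0.02 ± 1.07 (SE; edgeR adjusted p = 0.993) for Nefl and 0.86 ± 1.43 (SE; edgeR adjusted p = 0.746) for Dlx1. The Dlx1 value was -0.52 without clone 129, and that of Nefl changed sign without any 1 of 5 clones. For Nefl, Slc17a7 and Dlx1 the exact permutation p was 0.371, 0.0857 and 0.571, where 0.0286 is the smallest that 70 splits allow. Of all listed genes, Syn1, an X-linked synaptic vesicle protein, alone passed, with a mean of 3.36 FPKM in XX clones and 2.28 FPKM in XY clones (edgeR adjusted p = 0.0387). NPC clones against ES lines gave an exact permutation p of 0.0444 for each of the 5 genes, the smallest that 45 splits allow, and none of these 10 p-values was adjusted.

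Across clones, Pearson's r of log2 CPM over the 8 clones was between -0.04 and 0.52 for the 6 pairs among Dcx, Mtap2, Nefl and Dlx1. The genes most like Dcx were A430110N23Rik (r = 0.967), Lman2, a lectin of the secretory pathway (0.954), 1110008J03Rik (0.947), the kinase Prkd1 (0.946) and the Notch ligand Dner (0.946). Those most like Mtap2 were Cabin1 (0.934), Cbln2 (0.932), Cnpy3 (0.931), Tmem221 (0.929) and Phldb3 (0.928). Nefl was most like Msrb2 (0.956), Pak3 (0.936), Lmna (0.932), Fam43a (0.923) and Snord15b (0.917), and Dlx1, apart from Dlx1as, most like Celsr3 (0.943), Mtfmt (0.941), P2rx2 (0.937) and the unnamed fragment cuff_5220 (0.931). For the genes named with Nefl, Spearman's rank correlation was 0.857 (Msrb2), 0.595 (Pak3), 0.452 (Lmna), 0.762 (Fam43a) and 0.738 (Snord15b). Nefl had 0 to 47 counts per clone. Over 8 clones and 13591 genes, such values describe these libraries and no more.

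For the autosomal genes, a library with at least 20 counts was called biallelic with no more than 70% of its counts from the major allele, and monoallelic with at least 85% and a passed binomial test. Mtap2 was biallelic in 10 of 10 libraries. Of all calls, 1 per gene so covered and library, 85.5% were biallelic. The share of genes biallelic in every library was not computed. Its 129 share was 54.2% in XX clone 129, 53.9% in clone C2, 52.9% in clone G4 and 54.1% in clone E1.2, and 58.4% in XY clone mC3, 54.9% in clone mE6, 53.8% in clone mB4 and 55.5% in clone mG3, against 51.1% (exact 95% interval 47.5 to 54.8) in ES line F1-21.6 (XX) and 59.6% (56.8 to 62.3) in F1-23 (XY). All clones were slightly above 50% at a mean of 54.7% ± 1.67 (SD, n = 8), and clone mC3 was highest. The difference among clones did not pass a heterogeneity chi-square test scaled to the overdispersion of genes of like depth (adjusted p = 0.294; 19.6% of 12103 genes passed), but passed with 1 overdispersion for all genes (adjusted p = 4.31e-12). Without clone mC3 the scaled chi-square was 2.80 (adjusted p = 1), against 12.6 with all clones.

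The low genes gave shares in some clones only. Nefl was called monoallelic for Cast in clones mE6 (129 share 3.85%, interval 0.0973 to 19.6, 26 counts) and mG3 (4.35%, interval 0.11 to 21.9, 23 counts), and biallelic in C2 (41.5%), E1.2 (48.9%) and mC3 (38.5%) and in ES lines F1-21.6 and F1-23 (59.4% and 61.3%). Of autosomal genes with at least 20 counts, 6.95% were monoallelic in mE6 and 6.42% in mG3, but of those with 20 to 50 counts 33.1% and 32.1%. With a minimum of 100 counts no call of Nefl in an NPC clone could be made. Slc17a7 was biallelic in clones 129 (64.4%) and E1.2 (44.8%) and in ES lines F1-21.6 and F1-23 (67.3% and 50%). Dlx1 was biallelic in clones 129 (63.2%), E1.2 (50%) and mG3 (44%) and between the limits in C2 (18.2%, 22 counts) and mE6 (70.4%, 81 counts), and its shares are those of Dlx1as too.

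**Figure D4:**
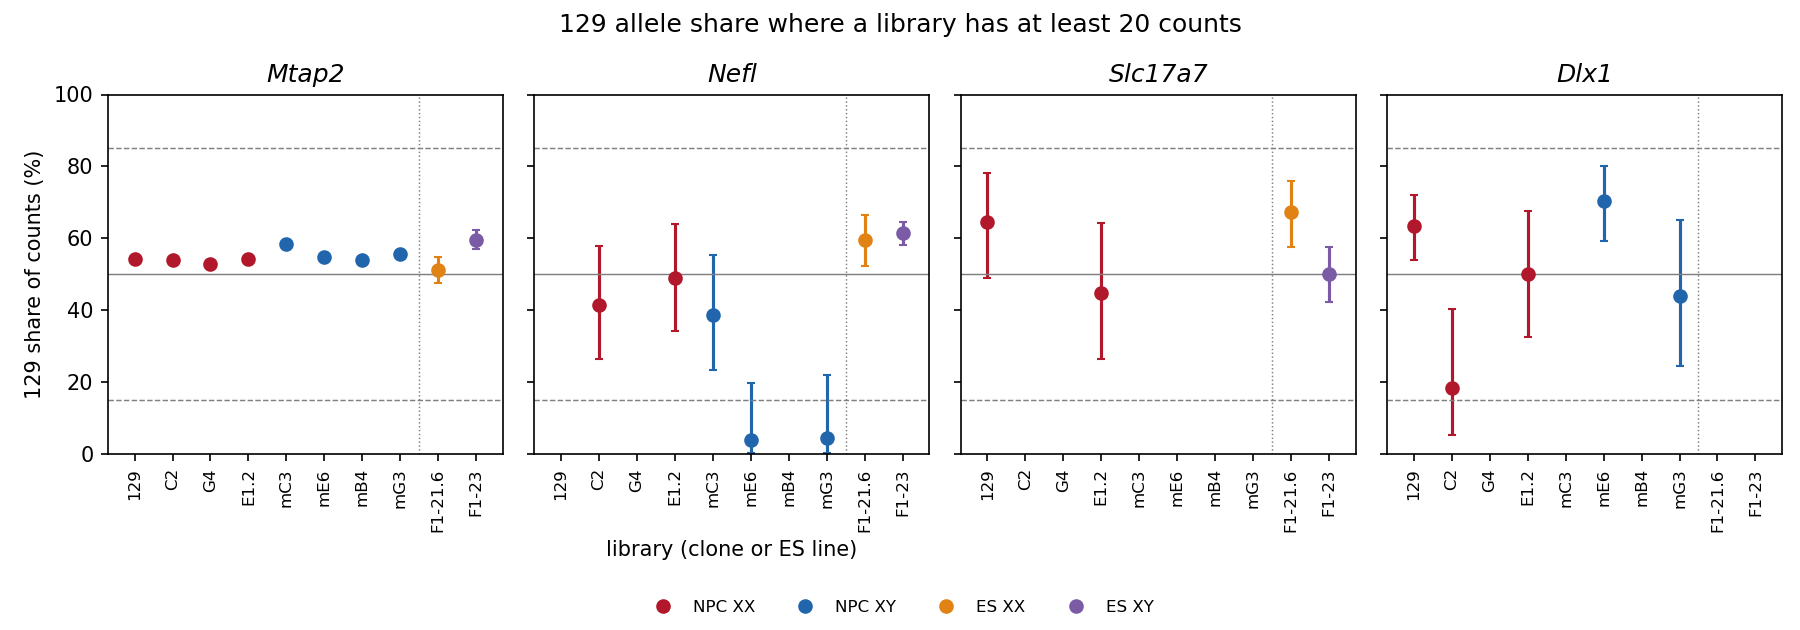
Share of counts from the 129 allele, with exact 95% intervals for counting error, in each library with at least 20 counts. NPC clones are left of the dotted line and ES lines right of it, the solid line marks 50%, and dashed lines mark the limits of monoallelic calls. Mtap2 stays between 51.1% and 59.6%, and Nefl is at 3.85% in clone mE6 and 4.35% in clone mG3.

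Dcx lies on the X chromosome, and its 129 share was 0% in XX clone 129 (of 5040 counts, upper exact limit 0.0732%), 0.048% in clone C2, 17.6% in clone G4 and 93.2% in clone E1.2, and 99.3% to 100% in the XY clones. In E1.2 the share times the count was not a whole number to within 0.01, as for 20.6% of X-linked values, so its share is given without an interval. The median of X-linked genes with at least 100 counts was 0%, 0.143%, 6.60% and 88.4% in the same XX clones. Dcx was on the side of the other X-linked genes in each XX clone. The G4 share rested on 408 counts (exact 95% interval 14.1 to 21.7). All Dcx counts were multiples of 6, so they may not be independent observations. The exact limits for G4 and clone 129 may thus be too narrow. In every XY clone the median of these genes was 100%. XY cells hold no pair of X chromosomes, so their shares cannot test whether Dcx followed the other X-linked genes. Both the highest level, in E1.2, and the lowest, in G4, came from XX clones, E1.2 with mostly 129 counts and G4 with mostly Cast counts.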

How the data were processed

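Polyadenylated RNA was sequenced as paired-end reads of 100 bp, and the values of 10 libraries were used. A pair of repeat libraries, of clones C2 and mC3, was not analysed here. Per the submitters' processing notes, the tools were TopHat 1.4.0, Cufflinks 1.3.0 and SAMtools, with the mouse build mm9. The variant list, the strand setting and the way reads over several variants were counted are not given in the sources used here. The table deposited by the authors holds counts per gene and library, the 129 share of those counts (a fraction, printed here in percent) and FPKM. All 30 value columns were matched to samples by name. The table holds no gene that is under 11 counts in all NPC clones. Coordinates are those of the deposited table with starts moved to count from 1, since 4200 of 12975 name-matched genes started 1 base below the GENCODE annotation and 351 at the same base.

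Counts depend on the variants in a gene, so they are compared only between libraries, and levels between genes are given in FPKM. The exception is the choice of genes of like CPM or depth for the spread and heterogeneity comparisons. Counts were tested with edgeR 4.0.16 (R 4.3.3; TMM, filterByExpr, quasi-likelihood F test, adjusted p of 0.05 over all genes), with the line as covariate for NPC against ES, without one among NPC clones, and with 4 groups for values within lines and their difference. Alternatives used DESeq2 1.42.0 and limma 3.58.1. List counts without clone E1.2 or the XY ES line, and lower bounds without each clone, were added after seeing the data. FPKM were compared as log2(FPKM + 1) by exact two-sided permutation tests. Intervals are exact Clopper-Pearson at 95%, and they and the floors of 3 counts cover counting error only. Both treat counts as independent observations, which those of Dcx may not be. Heterogeneity of shares was tested by a chi-square divided by the overdispersion of genes of like depth. Correlations used log2 CPM with a prior count of 2. edgeR and the heterogeneity test were tested on simulated data.

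The 5 genes and all lists were chosen with earlier results of these data known. Named by rule were up to 3 genes of each list with the largest change that passed, related genes of the 5, and for each of the 5 the 5 genes of highest correlation. Others were chosen after their values were seen. Dlx1as aside, these are Vim, Grin1, Eomes, Rest, Elavl3, Elavl4, Snap25, Syt1, Syn1, Gfap, Aldoc, Gja1, Sox2, Clu, Col6a1 and Isl1. Some genes that the rule names are not reported here. The labels give 1 clone number each and pair nothing, and the mC3 repeat carries a sex label at odds with its title.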

Additional observations from a re-analysis of the deposited data

Results flagged for a closer look

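In groups of 4 clones, the sample farthest from the others was set against Dixon's 95% critical value, for FPKM, CPM and, where all 4 clones had at least 20 counts, the 129 share. Of 24 groups, 4 had a sample that far out, and chance gives about 1 in 20 independent groups. These groups are not independent, since FPKM and CPM of a gene come from the same clones, so the 2 rates cannot be compared. Clone 129 was apart from the other XX clones in Slc17a7 (0.685 FPKM) and in Dlx1 (0.901 FPKM and 1.73 CPM). Clone mC3 was apart from the other XY clones in Dcx, with a 129 share of 99.3%, where the other XY clones had 100%. With these tied at 100%, any lower value would have stood apart. XY cells hold no pair of X chromosomes, and the source of the few Cast counts in mC3 was not tested.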

How the results depend on the processing

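No paired analysis was possible because the replicate numbers only name clones in accession order. Of 513 alternative values of 60 results, 466 kept direction and side of the threshold (for counts, stayed within 1.5 times). The cause of the others was not tested, apart from fewer counts where the minimum rises.

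For NPC against ES, limma on log2(FPKM + 1) gave 1.972 for Dcx (adjusted p = 0.0703), and DESeq2 gave 4.245 for Dlx1 (adjusted p = 0.0465). Within XX, DESeq2 gave -3.577 for Nefl and 7.731 for Dlx1, both passing. Nefl lost its call only without the XY ES line, over a range of -5.683 to -3.485, as did Slc17a7, over -5.572 to -2.478. Within XX, leaving out 1 library gave -3.849 to -3.151 for Nefl, which then passed without mB4, and -3.356 to -2.147 for Slc17a7, which passed without clone 129. With values under 0.1 FPKM set to 0.1, the Dlx1 difference in log2(FPKM + 1) was 0.18446 (exact permutation p = 0.667).

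For XX against XY clones, 175 genes passed in edgeR, 1945 in DESeq2, 472 in limma (144 higher and 328 lower, against 119 higher and 56 lower in edgeR) and 7 to 496 with 1 clone left out. The Nefl log2 fold change of -0.02 changed sign to 0.005859 with RLE size factors, 0.00135 without the filter, 0.002851 in DESeq2 and 0.1975 in limma, and ranged from -0.427 to 0.3797 with 1 clone left out. That range was -0.1818 to 0.0816 for Mtap2, -0.5191 to 2.535 for Dlx1, and -0.10588 to 0.22502 for the Dlx1 difference in log2(FPKM + 1), none passing. The interaction of line and cell type was passed by 15 genes in edgeR, 568 in DESeq2 and 3 to 30 with 1 clone left out. It could not be estimated for Dcx or without an ES line.

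With a minimum of 100 counts, Nefl had 0 monoallelic and 2 biallelic libraries, Slc17a7 2 biallelic and Dlx1 1 biallelic. With 1 overdispersion for all genes, the Mtap2 heterogeneity value was 73.225 (adjusted p = 4.31e-12), against 12.6. At 0 to 117 counts per clone, Nefl, Slc17a7 and Dlx1 are limited by depth.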
